A study of Homo sapiens with 4 samples.

Results

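The genes that carry glucose to lactate or into the mitochondrion were followed in SKOV3, a long-established line from a human ovarian cancer. The set comprised 34 of the 19475 gene symbols in the expression table. It was set by gene name, with no threshold on the measured values, but with earlier results of these data known. It held glucose transporters, enzymes of glycolysis, the PFKFB enzymes, lactate dehydrogenases and lactate transporters. It also held the carrier that brings pyruvate into the mitochondrion, and subunits and kinases of pyruvate dehydrogenase, which acts on pyruvate there. Symbols with several transcripts were represented by the 1 with the highest average level. SKOV3 cells on tissue culture plate (TCP) were labelled day 0, and SKOV3 spheroids on a plate coated with polymer X, a surface to which cells attach poorly, were labelled day 8. Each group had 2 poly(A) RNA libraries, and the spheroids were broken up with accutase at intervals during culture. Substrate, growth as spheroids and 8 days of culture changed together between the groups and cannot be told apart. The labels describe a serum-replacement medium for all 4 libraries, whereas the study's methods keep the parent line in fetal bovine serum, so whether the medium differed between the groups is uncertain. The labels do not say whether the libraries of a group came from separate cultures, and p-values therefore measure only the spread between these libraries, which may be technical.

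Glycolysis splits glucose into pyruvate in the cytosol, with hexokinase and phosphofructokinase as its main control points. Lactate dehydrogenase turns pyruvate into lactate, which monocarboxylate transporters export, while the pyruvate carrier and pyruvate dehydrogenase send it into the tricarboxylic acid cycle. Pyruvate dehydrogenase kinases (PDKs) switch the dehydrogenase off by phosphorylation. Many steps have several isoenzymes encoded by different genes, and cancer cells are known for high expression of glycolytic genes even with oxygen present.

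Levels were deposited as FPKM, fragment counts scaled to transcript length and library size, and are comparable between genes. The libraries held 38403000 and 44914000 tags on TCP and 40037000 and 40684000 on polymer X, recovered from the steps of the FPKM values. Correlations on the log scale were at least 0.997 within a group and at most 0.862 between groups. The 11964 symbols that reached an FPKM of 1 in 2 or more libraries were fitted together with limma on log2(FPKM + 1), and log2 fold changes (polymer X against TCP) are on that scale. In what follows, a gene rose or fell where its adjusted p was under 0.05, and was called where its log2 fold change was also at least 1 or at most -1. Epithelial markers of the line were present, with ERBB2, the receptor amplified in SKOV3, at 198 and 206 FPKM on TCP and 913 and 860 on polymer X, although CDH1 and KRT19 were below 1 in every library and EPCAM was below 1 on TCP. Of the 7 of these markers tested, ERBB2, PAX8, MUC1 and EPCAM were called higher, whereas KRT8 (265 to 144 FPKM between the means), KRT18 (122 to 89.5) and KRT7 (7.95 to 4.30) fell. EPCAM reached the filter given above only on polymer X, so it had to differ. Of 16 markers of other cell types, 3 reached an FPKM of 1 (ACTA2, COL1A1 and DCN). ACTA2 and DCN were called higher, but both reached the filter only on polymer X and had to differ. COL1A1 fell (8.34 ± 0.187 to 3.79 ± 0.0255 FPKM, SD, n = 2 each), and CD3E and HBB were at 0 in every library. The summed FPKM of the 16 markers was 9.93 and 9.98 on TCP and 15.8 and 14.8 on polymer X. The part of other cells in the values below was not tested.

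All 34 genes passed the filter on low values. They were chosen with earlier results of these data known, so the percentages below do not compare an unbiased list with all tested genes. On polymer X, 8 genes were called higher (SLC2A1, SLC2A3, HK2, PFKFB4, ALDOC, ENO2, ENO3 and PDK4), or 23.5%, beside 10.7% of all tested genes. SLC2A6 and LDHB were called lower, or 5.88%, beside 9.45% of all tested genes. Without a minimum fold, 20 genes (58.8%) rose and 8 (23.5%) fell, where 37.4% and 43.6% of all tested genes did so. The remaining 6, TPI1, GAPDH, ENO1, PKM, LDHA and PDHB, did not pass the test. In each of the 34 genes, these 6 included, the libraries of the groups did not overlap. Both polymer X libraries lay above both TCP libraries in 22 genes and below them in 12. A lack of overlap therefore does not set the called genes apart from the others. The share of all tested genes without overlap is not given here, so these counts cannot be read as a trait of the set. The median log2 fold change was 0.40 over the 34 genes and -0.06 over all tested genes. SLC2A3 and PDK4 reached the filter only through the polymer X libraries and had to differ. Both are still included in the 8 called higher, the 20 that rose, the percentages and the median. Their part in these figures was fixed in advance and carries no weight. In bulk RNA, fewer cells of a type and less RNA per cell cannot be told apart.

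**Figure D1:**
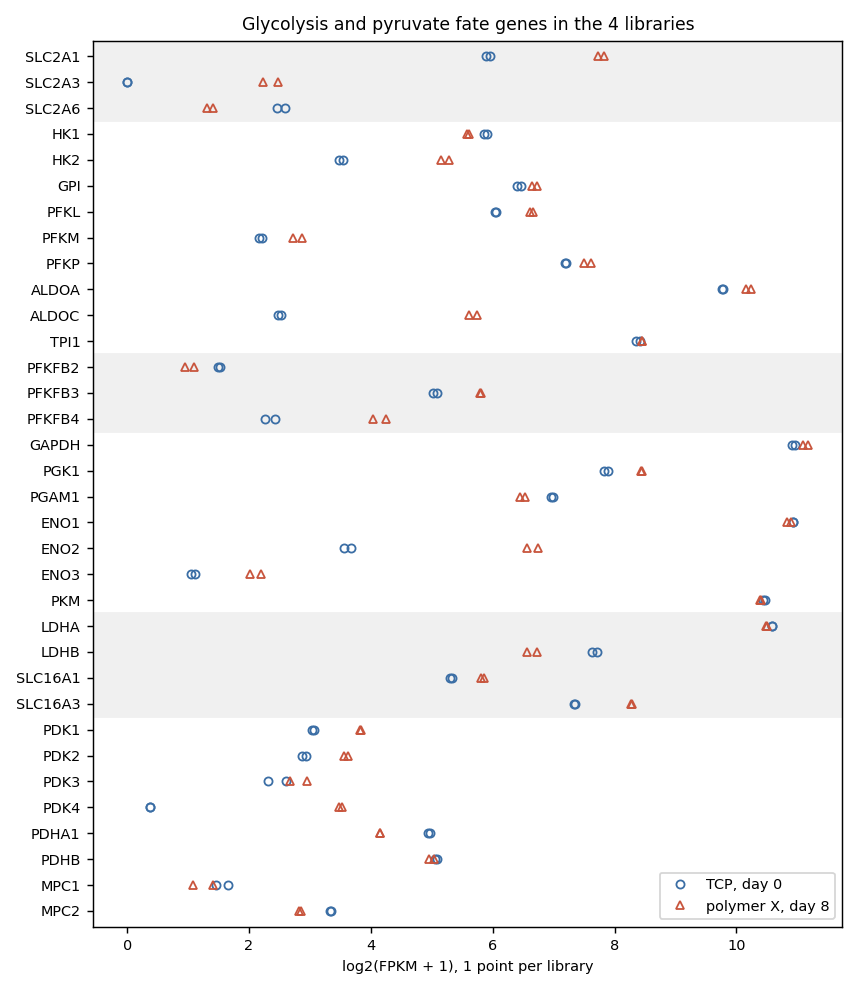
Level of each of the 34 genes in the 4 libraries, as log2(FPKM + 1) on the horizontal axis, with circles for TCP at day 0 and triangles for polymer X at day 8, in the order of the pathway from uptake (top) to mitochondrial pyruvate (bottom). The lower-level isoenzymes ALDOC, ENO2 and PDK4 lie far apart between the groups, whereas ENO1, PKM and LDHA, among the most abundant, lie close together. PDK4 reached the filter only on polymer X and had to differ.

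The plot of levels by library shows where in the pathway the differences lay. Among the 3 glucose transporters, 2 were called higher and 1 lower. Of the 2, SLC2A3 reached the filter only on polymer X and had to differ. SLC2A1 (NM_006516, hg19 chr1:43391046-43424847), encoding the basal glucose transporter GLUT1, was at 58.2 and 60.9 FPKM on TCP and at 212 and 225 on polymer X. Both polymer X libraries lay above both TCP libraries, by 3.66-fold between the means (59.6 ± 1.89 and 218 ± 9.30, SD, n = 2 each), with a log2 fold change of 1.86 (SE 0.06, adjusted p = 7.6e-09). SLC2A3 (hg19 chr12:8071824-8088892), encoding the high-affinity transporter GLUT3, had 0 tags in both TCP libraries and 719 and 585 tags, or 4.58 and 3.66 FPKM, on polymer X. Set against 3 tags per library, the limit that a count of 0 allows, it was at least 223-fold higher, while its fitted log2 fold change depended on the pseudocount (2.35 with 1, 5.39 with 0.1). Its reads cannot be fully separated from those of its near-identical paralog SLC2A14. SLC2A6, a transporter of intracellular membranes, had 5.02 and 4.52 FPKM on TCP against 1.49 and 1.66 on polymer X (log2 fold change -1.16, SE 0.08, adjusted p = 1e-06). The groups did not overlap for any of the 3, as was true of every gene in the set. The sum of the family went from 64.3 ± 1.53 to 224 ± 8.78 FPKM. SLC2A1 made up 92.6% of this sum on TCP and 97.5% on polymer X. The 13 other hexose transporters listed outside the set summed to 16.2 and 15.4 FPKM on TCP and to 42.1 and 43.1 on polymer X. They would lower these shares if counted.

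Glucose is trapped in the cell by hexokinase, and here the 2 isoenzymes moved in opposite directions. HK2 (hg19 chr2:75059782-75120481), the inducible isoenzyme, was at 10.7 and 10.1 FPKM on TCP and at 34.7 and 37.7 on polymer X, with no overlap (3.49-fold, log2 fold change 1.71, SE 0.06, adjusted p = 1.9e-08). HK1, the constitutive isoenzyme, was at 56.7 and 58.8 FPKM on TCP and at 46.8 and 47.8 on polymer X, and fell by 0.28 on the log2 scale (adjusted p = 0.00096), a direction that turned to 0.026 under quantile normalization and, at -0.12, no longer passed under rescaling to a common sum. HK2 therefore went from 15.9% and 14.6% of the HK1 and HK2 total on TCP to 42.6% and 44.1% on polymer X. HKDC1, a further hexokinase outside the set and named after its values were seen, was at 24.5 ± 0.789 FPKM on TCP and 22.6 ± 0.371 on polymer X, and would lower these shares if counted.

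None of the genes of the next steps, up to phosphofructokinase, was called. GPI, the glucose phosphate isomerase, rose (log2 fold change 0.25, adjusted p = 0.0028). All 3 phosphofructokinases, which catalyse the committed step, rose too: PFKL by 0.59, PFKM by 0.61 and PFKP by 0.37 on the log2 scale. PFKP, the platelet form and the most abundant of them, was at 145 and 146 FPKM on TCP and at 180 and 196 on polymer X. The summed FPKM of the family was 214 ± 1.48 on TCP and 292 ± 13.0 on polymer X, with PFKP at 68.0% and 64.3% of it. Under quantile normalization the log2 fold changes were larger, at 0.59 for GPI, 0.93 for PFKL and 0.70 for PFKP, except for PFKM, at 0.53.

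Aldolase cleaves the sugar into triose phosphates. ALDOA, the main isoenzyme, was at 872 and 878 FPKM on TCP and at 1145 and 1209 on polymer X and rose by 0.43 on the log2 scale (SE 0.07, adjusted p = 0.00046, or 0.085 with no filter on low values). ALDOC (hg19 chr17:26900133-26903951), the form typical of brain, was at 4.75 and 4.56 FPKM on TCP and at 47.7 and 52.7 on polymer X. Its libraries stood 10.8-fold apart with no overlap (log2 fold change 3.18, SE 0.07, adjusted p = 1e-09), which placed it at rank 52 of the 11964 tested genes by log2 fold change. Even so, ALDOC supplied only 4.09% of the family's FPKM on polymer X, after 0.529% on TCP. TPI1, which interconverts the triose phosphates, was at 343 and 325 FPKM on TCP and at 349 and 347 on polymer X and did not pass the test (log2 fold change 0.06, 95% confidence interval -0.08 to 0.20). Under quantile normalization and under rescaling to a common sum its log2 fold change was 0.32 and 0.23, and both passed.

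The PFKFB enzymes make and break down the sugar bisphosphate that activates phosphofructokinase. PFKFB4, the isoenzyme first described in testis, was at 3.77 and 4.34 FPKM on TCP and at 15.3 and 18.1 on polymer X, a 4.11-fold difference without overlap (log2 fold change 1.80, SE 0.09, adjusted p = 1.2e-07). PFKFB3, the isoenzyme with the strongest kinase activity and the most abundant here, was at 31.6 and 33.1 FPKM on TCP and at 54.4 and 55.2 on polymer X. It rose by 0.74 on the log2 scale (adjusted p = 1.4e-06), and under quantile normalization it was also called higher, with 1.04. PFKFB2, the heart form, fell by 0.48 from a low level (1.86 and 1.81 FPKM to 1.14 and 0.937), and by 0.93 under quantile normalization. PFKFB4 thus made up 10.6% of the family on TCP and 23.0% on polymer X, while PFKFB3 stayed the main form at 84.6% and 75.6%.

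**Figure D2:**
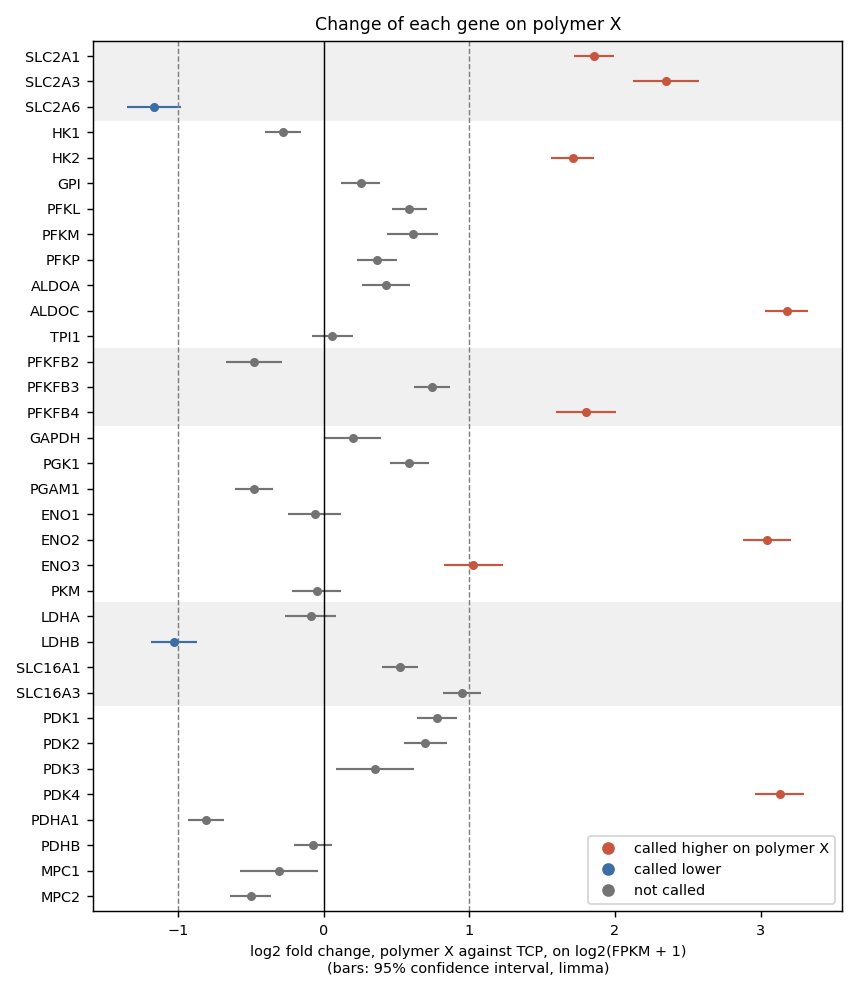
Log2 fold change of each gene on polymer X against TCP, on log2(FPKM + 1), with bars for the 95% confidence interval from limma and dashed lines at -1 and 1, and with called genes in colour. Of the 10 called genes, ALDOC, ENO2 and PDK4 lie above 3, whereas the intervals of SLC2A6, ENO3 and LDHB reach across the dashed lines. PDK4 and SLC2A3 reached the filter only on polymer X and had to lie above 0. The sign of ENO1, PKM, LDHA and PDHB, all close to 0, turned under rescaling to a common sum, and that of HK1 and PDHB under quantile normalization.

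The steps from triose phosphate to pyruvate, which yield ATP, held both the most abundant transcripts and a large isoenzyme difference. GAPDH, the dehydrogenase of this stretch, was at 1990 and 1921 FPKM on TCP and at 2174 and 2321 on polymer X and missed the threshold (log2 fold change 0.20, adjusted p = 0.054). It passed under 9 of 14 alternatives, among them rescaling to a common sum (0.37, adjusted p = 0.00022). It did not pass with no filter on low values (adjusted p = 0.71), and under quantile normalization the log2 fold change was 5.9e-16. Whether GAPDH passes thus depends on the processing. PGK1, which makes the first ATP, was at 236 and 227 FPKM on TCP and at 347 and 349 on polymer X and rose by 0.59 on the log2 scale (adjusted p = 1.2e-05). PGAM1, the mutase, went the other way, from 126 and 123 FPKM to 86.5 and 91.2, and fell by 0.48 (adjusted p = 3.6e-05, or 0.076 under quantile normalization). Reads of GAPDH, PGAM1, ENO1 and LDHA can be shared with processed pseudogenes or close copies, so their levels are less certain.

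Of the enolases, ENO2 and ENO3 were called higher and ENO1 was not. ENO2 (hg19 chr12:7023614-7032859), known as neuron-specific enolase, was at 10.7 and 11.7 FPKM on TCP and at 93.8 and 106 on polymer X, 8.90-fold apart without overlap (log2 fold change 3.04, SE 0.07, adjusted p = 2e-09). ENO3, the muscle form, was at 1.15 and 1.08 FPKM on TCP and at 3.60 and 3.02 on polymer X (log2 fold change 1.03, SE 0.09, adjusted p = 4.3e-06). Its call was lost under quantile normalization (0.75) and without polymer X replicate 1 (0.93). ENO1, the ubiquitous form, was at 1945 and 1943 FPKM on TCP and at 1829 and 1897 on polymer X, with a log2 fold change of -0.06 (95% confidence interval -0.24 to 0.12) that became 0.11 under rescaling to a common sum. Under quantile normalization it was -0.22, with an adjusted p of 0.026. The sum of the 3 enolases was 1957 and 1956 FPKM on TCP and 1927 and 2006 on polymer X, so at the level of the family the groups overlapped, with ENO2 at 0.574% and 5.08% of it. PKM, the pyruvate kinase, was at 1383 and 1410 FPKM on TCP and at 1345 and 1353 on polymer X, and its log2 fold change was -0.05, which became 0.12 under rescaling to a common sum, passing the test under neither.

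The start sites of genes that differed most are shown next, since ALDOC and ENO2 stood out among the isoenzymes and belong to a pathway whose promoters are known to be bound by hypoxia-inducible factors and by MYC. The core of the hypoxia response element is ACGTG, and the E-box CACGTG contains it. The windows run from 250 bases before to 50 after a RefSeq start site on GRCh38.p14, on the strand of the gene, and capitals mark ACGTG on either strand (written CACGT on the other one) or the whole CACGTG where both overlap. ALDOC (chr17:28576846-28577145, minus strand), ENO2 (chr12:6914330-6914629, plus strand), SLC2A1 (chr1:42958819-42959118, minus strand) and PDK4 (chr7:95596467-95596766, minus strand) were called higher, ENO1 (chr1:8878637-8878936, minus strand) is the abundant counterpart of ENO2, and LDHB (chr12:21657793-21658092, minus strand) was called lower.
ALDOC: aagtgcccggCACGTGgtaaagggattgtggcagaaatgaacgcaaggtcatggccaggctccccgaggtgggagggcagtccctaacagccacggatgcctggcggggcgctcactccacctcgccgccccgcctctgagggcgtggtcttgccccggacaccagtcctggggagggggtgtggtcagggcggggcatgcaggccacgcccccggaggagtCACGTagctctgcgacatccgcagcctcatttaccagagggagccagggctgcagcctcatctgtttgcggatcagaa
ENO2: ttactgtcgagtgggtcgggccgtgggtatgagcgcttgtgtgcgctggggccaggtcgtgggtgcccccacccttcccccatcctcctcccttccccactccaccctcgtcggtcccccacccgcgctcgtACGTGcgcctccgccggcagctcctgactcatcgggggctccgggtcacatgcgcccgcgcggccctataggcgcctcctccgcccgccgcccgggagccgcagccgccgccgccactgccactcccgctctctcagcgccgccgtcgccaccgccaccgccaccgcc
SLC2A1: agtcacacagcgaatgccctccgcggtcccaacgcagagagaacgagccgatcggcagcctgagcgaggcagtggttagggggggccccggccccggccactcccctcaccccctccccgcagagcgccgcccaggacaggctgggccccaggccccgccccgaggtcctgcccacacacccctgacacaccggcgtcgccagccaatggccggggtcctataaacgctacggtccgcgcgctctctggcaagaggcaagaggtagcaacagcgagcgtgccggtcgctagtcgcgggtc
PDK4: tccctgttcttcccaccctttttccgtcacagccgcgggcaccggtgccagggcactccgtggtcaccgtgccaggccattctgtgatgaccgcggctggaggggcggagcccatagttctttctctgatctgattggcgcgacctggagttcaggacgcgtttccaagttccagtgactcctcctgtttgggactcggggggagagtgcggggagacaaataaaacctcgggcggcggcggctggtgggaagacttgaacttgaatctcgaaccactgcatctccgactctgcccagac
ENO1: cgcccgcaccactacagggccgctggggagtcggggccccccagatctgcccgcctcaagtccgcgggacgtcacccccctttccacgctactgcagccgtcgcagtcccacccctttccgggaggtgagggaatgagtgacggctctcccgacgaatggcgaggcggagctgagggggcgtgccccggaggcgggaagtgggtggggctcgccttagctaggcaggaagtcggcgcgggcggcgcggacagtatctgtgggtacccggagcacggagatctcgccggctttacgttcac
LDHB: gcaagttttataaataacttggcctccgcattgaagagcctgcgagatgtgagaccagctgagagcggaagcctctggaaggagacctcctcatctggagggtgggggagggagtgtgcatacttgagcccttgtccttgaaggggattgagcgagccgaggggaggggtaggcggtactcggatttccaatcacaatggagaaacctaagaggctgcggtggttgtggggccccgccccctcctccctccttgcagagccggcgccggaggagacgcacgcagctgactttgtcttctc

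In these windows, ALDOC held an E-box whose ACGTG letters begin at positions -240 (opposite strand) and -239 (same strand) from the start, and a further copy on the opposite strand at position -28. ENO2 held 1 copy at -118, and the windows of SLC2A1, PDK4, ENO1 and LDHB held none. The promoter table had 31 of the 34 genes, with 62 promoters, and did not list PFKFB2, SLC16A1 or SLC2A3. ACGTG was present on either strand in 21 of the 62 promoters (33.9%), against 21.4% of all 35116 promoters of the table and 23.0% of the 22198 promoters of protein-coding genes. Of the genes called higher that had a promoter in the table, 3 of 7 held the letters (HK2, ALDOC and ENO2), beside 14 of 22 genes that were not called and 0 of 2 called lower. Counted this way, by any promoter of a gene, the share was 24.9% of all 27305 genes and 28.5% of the 15842 protein-coding genes. Genes with more promoters have more places for a match. CACGTG alone was in 12.9% of the promoters, beside 7.26% of all and 8.34% of those of protein-coding genes. A match is a description of letters and not a binding site, and windows of this length leave out most regulatory sequence.

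Pyruvate can be reduced to lactate and exported. LDHA, the muscle-type subunit, was at 1536 in both TCP libraries and at 1448 and 1438 FPKM on polymer X and did not pass the test (log2 fold change -0.09, 95% confidence interval -0.26 to 0.08, and 0.076 under rescaling to a common sum). LDHB (hg19 chr12:21788276-21810789), the heart-type subunit, was at 209 and 198 FPKM on TCP and at 105 and 93.2 on polymer X, with both polymer X libraries below both TCP libraries (0.488 of the TCP mean, log2 fold change -1.03, SE 0.07, adjusted p = 8.1e-07). Lying this close to the limit of -1, LDHB lost its call at a common median (-0.99), under rescaling to a common sum (-0.87), under quantile normalization (-0.65), without TCP replicate 1 (-0.99) and without polymer X replicate 2 (-0.95), with its direction kept in each. The share of LDHB in the LDH total was 11.7% ± 0.393 on TCP and 6.42% ± 0.473 on polymer X (SD, n = 2 each).

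Both lactate transporters rose. SLC16A3, encoding MCT4, a transporter typical of cells that export lactate, was at 162 and 159 FPKM on TCP and at 313 and 309 on polymer X, a 1.94-fold difference without overlap. Its log2 fold change of 0.95 (SE 0.06, adjusted p = 3.5e-07) was just under the limit for a call, which it passed under quantile normalization (1.23) and under rescaling to a common sum (1.12). SLC16A1, encoding MCT1, which carries lactate in either direction, was at 38.4 and 39.4 FPKM on TCP and at 57.2 and 55.2 on polymer X and rose by 0.52, or by 0.84 under quantile normalization. SLC16A3 made up 80.5% of the pair on TCP and 84.7% on polymer X.

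The other fate of pyruvate is the mitochondrion, and here the PDKs rose while subunits of the carrier and the dehydrogenase fell or did not pass. PDK4 (hg19 chr7:95212809-95225925), the kinase induced by fasting, was at 0.290 and 0.302 FPKM (41 and 50 tags) on TCP and at 10.5 and 10.2 FPKM (1553 and 1524 tags) on polymer X. The means stood 34.9-fold apart, whereas the log2 fold change was 3.13 with a pseudocount of 1 (SE 0.07, adjusted p = 1.8e-09) and 4.72 with 0.1. PDK4 reached the filter only on polymer X and had to differ, so its p-value carries no weight. PDK1, a kinase known as a target of hypoxia-inducible factor, was at 7.21 and 7.33 FPKM on TCP and at 13.1 and 13.3 on polymer X, and rose by 0.78 on the log2 scale. PDK2, a widely expressed kinase of the family, was at 6.43 ± 0.239 FPKM on TCP (SD, n = 2) and at 11.3 and 10.8 on polymer X, and rose by 0.70. For all 3 kinases the lower polymer X library was above the higher TCP library, which for PDK4 was fixed in advance. The sum of the 4 kinases was 18.5 ± 0.498 FPKM on TCP and 40.6 ± 1.39 on polymer X, and PDK4 made up 1.54% and 1.66% of it on TCP and 25.3% and 25.6% on polymer X.

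PDK3 depended on the transcript. Its short transcript NM_005391 (1790 bases), kept for its higher mean, was at 5.12 and 3.94 FPKM on TCP and at 6.74 and 5.38 on polymer X and rose by 0.35 on the log2 scale (SE 0.12, adjusted p = 0.021). It no longer passed without TCP replicate 2 (0.20), without polymer X replicate 1 (0.21) or with no filter on low values (adjusted p = 0.23). The long transcript NM_001142386 (12765 bases) was at 2.73 and 2.47 FPKM on TCP and at 8.05 and 7.56 on polymer X, with a log2 fold change of 1.29 that was called higher. It also carried more tags (1340 and 1416, then 4113 and 3928) than the short one (352 and 317, then 483 and 392). The transcripts share exons, so their tags are not independent. For the other genes with several transcripts the fold changes differed less between them, with PFKM (0.57 to 0.79) and PDK2 (0.58 to 0.70) next.

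PDHA1, the catalytic alpha subunit of pyruvate dehydrogenase that the PDKs phosphorylate, was at 29.7 and 30.2 FPKM on TCP and at 16.7 and 16.6 on polymer X, and fell by 0.81 on the log2 scale (SE 0.05, adjusted p = 8e-07). PDHB, the beta subunit of the same enzyme, was at 32.2 and 33.1 FPKM against 31.9 and 30.0 and did not pass (log2 fold change -0.08, turning to 0.088 under rescaling to a common sum and to 0.18 with an adjusted p of 0.011 under quantile normalization). The means of the subunits were therefore close on TCP (30.0 and 32.6 FPKM) and further apart on polymer X (16.7 and 30.9 FPKM). MPC2, a subunit of the mitochondrial pyruvate carrier, was at 9.16 and 9.10 FPKM on TCP and at 6.21 and 6.09 on polymer X and fell by 0.50. MPC1, the partner subunit, was low in every library (44 to 79 tags, or 2.13 and 1.75 FPKM, then 1.66 and 1.12), and its fall by 0.31 (adjusted p = 0.036, or by 0.68 under quantile normalization) passed under 8 of 13 alternatives only. It did not pass without TCP replicate 1 (-0.21), without polymer X replicate 2 (-0.14), at a common median, under rescaling to a common sum or with no filter on low values. Spans of PFKM, TPI1, PDK2, PDHA1 and MPC2 overlap a gene on the other strand (SENP1, SPSB2, SAMD14, MAP3K15 and DCAF6), and tags were counted on both strands, so reads of the neighbours could not be separated there.

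**Figure D3:**
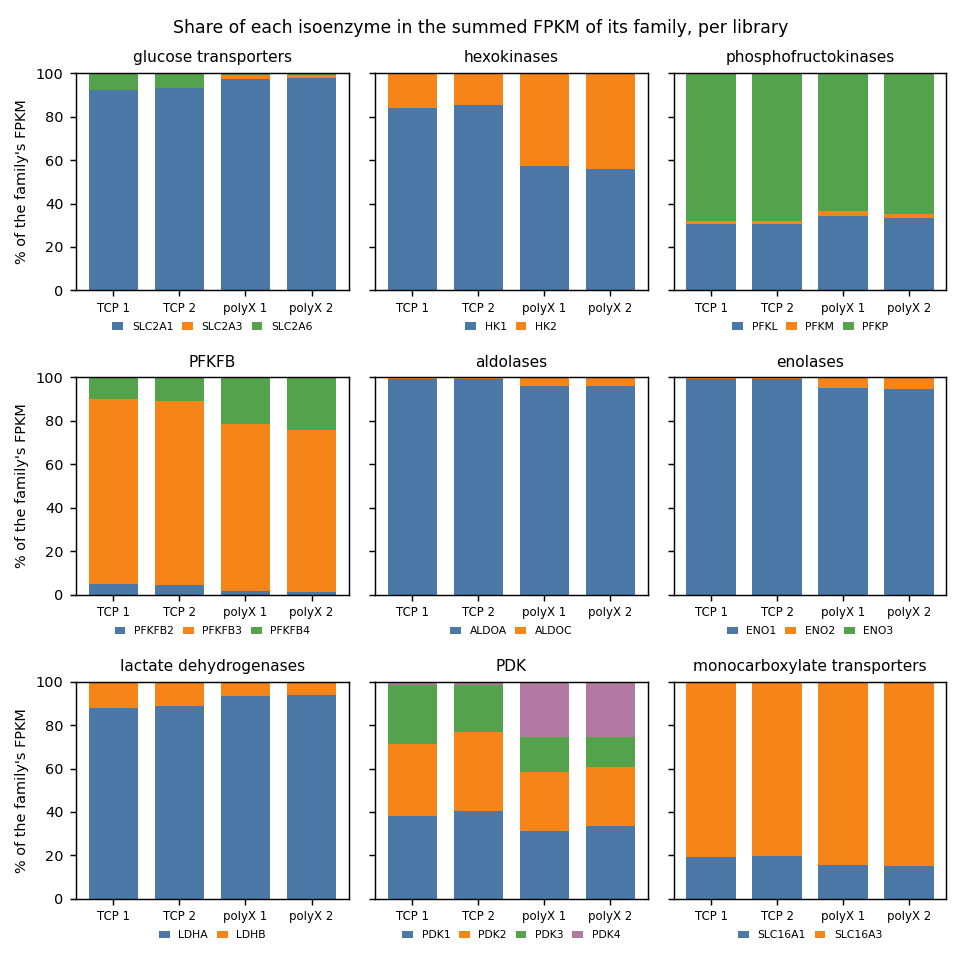
Share of each isoenzyme in the summed FPKM of its family (vertical axis, percent), with 1 stacked bar per library and 1 panel for each of 9 families. HK2, PFKFB4 and PDK4 take up visibly more of their families on polymer X than on TCP, whereas ALDOA, ENO1 and LDHA keep at least 88.0% in every library.

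In the stacked bars, the isoenzyme shares differed between the groups by 28.1 percentage points for HK2, 23.9 for PDK4 and 12.4 for PFKFB4. These sizes depend on how transcripts are combined. With the transcripts of each symbol summed, which counts shared exons repeatedly, they were 5.70, 10.8 and 12.3 points, and those of SLC2A1 and SLC2A6 were 10.4 and -12.3 in place of 4.87 and -6.72. With 1 transcript per symbol, libraries of the groups did not overlap for any share. With 2 libraries against 2, the exact two-sided permutation test cannot give a p below 0.333, which was its value for every share. In all, the 34 genes made up 3.00% and 3.08% of the summed FPKM of all symbols on TCP and 3.67% and 3.87% on polymer X. ALDOA, GAPDH, ENO1, PKM and LDHA, picked after their levels were seen, supplied 82.1% and 82.3% of the summed FPKM of the 34 genes on TCP and 77.9% and 78.2% on polymer X. The 8 genes called higher supplied 0.974% on TCP and 4.24% on polymer X, so they were a small part of these transcripts in either group.

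Further genes of glucose metabolism were counted from lists outside the 34. Of 123 such genes 85 were tested, 10 were called higher (11.8%, beside 10.7% of all tested genes) and 5 lower (5.88%, beside 9.45%). Of the 10, 6 reached the filter only through the polymer X libraries and had to differ: SLC2A5, SLC16A8, GYG2, PPP1R3C, ARRDC4 and MLXIPL, the last 2 named after their values were seen. Among other hexose transporters, 5 of 6 tested rose, beside 37.4% of all tested genes. Of the 5, SLC2A5, SLC2A10 and SLC2A11 reached the filter only on polymer X and had to differ, so this count carries little weight. SLC2A10 and SLC2A11 were named after their values were seen. SLC2A5, the fructose transporter, was called higher, with 0.044 and 0 FPKM on TCP and 15.3 and 16.6 on polymer X. Among 8 tested further isoenzymes and regulators of glycolysis, 2 rose and 1 fell. The gene that fell, TIGAR, named after its values were seen, reached the filter only on TCP and had to differ. PGAM2, the muscle mutase, was called higher (1.16 and 1.28 FPKM, then 5.92 and 7.10), opposite to PGAM1. All 3 tested further lactate and monocarboxylate genes rose, but SLC16A7 and SLC16A8 reached the filter only on polymer X and had to differ. SLC16A8, a lactate transporter, was called higher (log2 fold change 1.58). The remaining gene, BSG, was at 352 and 346 FPKM on TCP and at 476 and 486 on polymer X and rose by 0.46. SLC16A7 and BSG were named after their values were seen. Of the remaining 6 tested genes of the pyruvate dehydrogenase complex, 2 rose and 2 fell. Those that rose were its phosphatases, PDP1 (log2 fold change 0.39) and PDP2 (0.46), and those that fell were DLAT (-0.86) and DLD (-0.76). These genes were named after their values were seen. Of 4 tested gluconeogenic genes 2 rose and 1 fell, and none of either list was called. The counts of these small lists stand beside 37.4% of all tested genes that rose and 43.6% that fell.

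**Figure D4:**
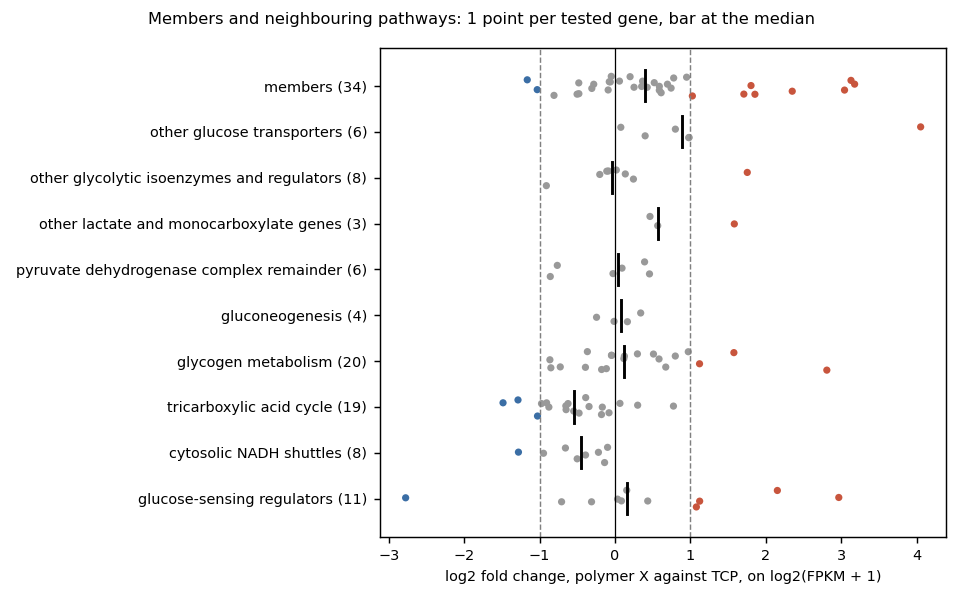
Log2 fold change of every tested gene in the set of 34 and in 9 neighbouring lists, with 1 point per gene, a black bar at the list's median, dashed lines at -1 and 1, and called genes in colour. The median is 0.40 for the 34 genes, 0.89 for the other hexose transporters and -0.55 for the tricarboxylic acid cycle. The hexose transporter median includes SLC2A5, SLC2A10 and SLC2A11, which reached the filter only on polymer X and had to lie above 0.

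The tricarboxylic acid cycle consumes the product of pyruvate dehydrogenase. Of its 19 genes, all tested, 15 fell and 2 rose, where 43.6% of all tested genes fell and 37.4% rose, and the median log2 fold change was -0.55. FH, the fumarase, was called lower with -1.48, CS, the citrate synthase, with -1.29, and IDH3B, a subunit of isocitrate dehydrogenase, with -1.03. The shuttles that carry cytosolic NADH into the mitochondrion had 6 of 8 tested genes that fell and 0 that rose, beside the same 43.6% and 37.4%. GOT2, the mitochondrial aspartate aminotransferase, was called lower (-1.28). In glycogen metabolism 9 of 20 tested genes rose and 5 fell, beside 37.4% and 43.6% of all tested genes. PPP1R3B, a glycogen-targeting subunit of protein phosphatase, was called higher (6.08 and 5.46 FPKM, then 45.6 and 47.1), as were GYG2, a glycogenin on which glycogen is started, and PPP1R3C, another targeting subunit. GYG2 and PPP1R3C, both among the 9 that rose, reached the filter only on polymer X and had to differ.

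Regulators that sense or control glucose use did not share a direction, with 5 of 11 tested genes rising and 3 falling. Over all tested genes, 37.4% rose and 43.6% fell. Of the 5, ARRDC4 and MLXIPL reached the filter only on polymer X and had to differ. TXNIP, an inhibitor of glucose uptake that glucose itself induces, was at 46.9 and 47.0 FPKM on TCP and at 391 and 358 on polymer X (log2 fold change 2.97, SE 0.06, adjusted p = 1e-09). MYC, a transcription factor known to act on many glycolytic genes, was at 19.7 and 20.4 FPKM on TCP and at 1.99 and 2.16 on polymer X (log2 fold change -2.78). EPAS1, encoding an alpha subunit of hypoxia-inducible factor, was called higher (9.20 ± 0.173 FPKM, then 44.4 ± 0.907), whereas HIF1A, named after its values were seen, fell by 0.71. No link between these regulators and the 34 genes was tested.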

How the data were processed

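Poly(A) RNA of SKOV3 cells was sequenced in 4 libraries, 2 from TCP (day 0) and 2 from polymer X (day 8), grouped by their labels. The authors deposited FPKM values per RefSeq transcript. Per the file headers, HOMER counted tags on exons of hg19 transcripts on both strands, although a kit named in the labels keeps strand. The submitters' processing notes name STAR 2.4.0, HOMER and DESeq, with no roles. The header also names ULA and V4D4 libraries, which are not analysed here. Transcript lengths served to recover tags and to find the longest transcript. With tags taken as whole within 0.1, 100% of 2563 to 2803 low values per library gave the depth, and limits for a count of 0 were set at 3 tags per library (0.0334 to 0.0391 FPKM for a transcript of 2000 bases). These cover counting error only.

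For each of the 19475 symbols among 50078 transcripts, the transcript highest on average was kept, log2(FPKM + 1) was computed, and the 11964 symbols that reached an FPKM of 1 in 2 or more libraries were fitted in limma 3.58.1 under R 4.3.3, using its mean-variance trend and Benjamini-Hochberg adjustment. Calls required an adjusted p under 0.05 together with a log2 fold change of at least 1 in size. Isoenzyme shares were compared with exact two-sided permutation tests. Every one of the 34 genes is named, and up to 3 called genes with the largest absolute log2 fold change per neighbouring list. The genes and lists were chosen with earlier results of these data known. Alternatives covered the pseudocount, the filter, the scaling, the transcript, the trend, the fold minimum, a replicate block and each library left out. Promoters came from RefSeq on GRCh38.p14. The scripts were tested on simulated data and drew figures with matplotlib 3.10.9.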

Additional observations from a re-analysis of the deposited data

How the results depend on the processing

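The replicate block gave 8 genes called higher and 2 lower, as without it, and moved only GAPDH past an adjusted p of 0.05 (0.0039). Deviations of same-numbered libraries correlated at 0.093 over 11964 genes. The labels do not say whether the replicate numbers mark a pairing, and this correlation cannot decide it. Of 470 values of single genes under the alternatives, 453 kept direction and call, 7 lost a call, 4 gained one and 6 turned, while 25 values, of 9 genes, crossed an adjusted p of 0.05. Those that turned were HK1 (0.026) and PDHB (0.18) under quantile normalization and ENO1 (0.11), PKM (0.12), LDHA (0.076) and PDHB (0.088) under rescaling to a common sum, which moved the median of all tested genes from -0.06 to 0.10. Of the shares, that of PFKM turned under quantile normalization (-0.17 points) and that of PDK3 with the longest transcript (2.57 points), and 53 of 168 moved by more than the spread between libraries. Genes called higher numbered 20 without a fold minimum and 4 at a log2 fold change of 2 or more in size, and 7 to 8 with a library left out. Genes called lower numbered 8 and 0 at these limits, 1 with a minimum mean FPKM of 5, quantile normalization, a common median or rescaling to a common sum, and 1 to 2 with a library left out. Over all tested genes, 1285 called higher became 702 with a minimum mean FPKM of 5, 2057 after rescaling, 4477 without a fold minimum and 281 at a minimum of 2, and 1131 called lower became 5212 and 150 at the last 2 limits. The median of the 34 genes, 0.40, was 0.56 under quantile normalization, 0.58 after rescaling, 0.49 with summed transcripts or the longest transcript, and 0.40 to 0.46 with a library left out. Counting GCGTG beside ACGTG raised the share of promoters from 33.9% to 64.5%, beside 48.4% of all promoters and 54.7% of those of protein-coding genes. The causes of these shifts were not tested. Summed transcripts count shared exons repeatedly, and a lone library is assumed to vary like the other group. Depth limits MPC1 and the TCP values of PDK4 and SLC2A3.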
